A study of Danio rerio with 8 samples.

Results

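SWI/SNF complexes are remodellers that spend ATP to slide or evict nucleosomes, and the transcripts of their subunits were compared between heads of *mtmr5*-KO and WT zebrafish larvae. Subunits were found by symbol in the table of raw counts, as rows named for the *smarca2*, *smarca4*, *smarcb*, *smarcc*, *smarcd*, *smarce*, *arid1*, *arid2*, *pbrm1*, *dpf*, *phf10*, *brd7*, *brd9*, *actl6*, *ss18*, *bcl7*, *bcl11* and *bicra* families that reached 10 counts in 3 or more libraries. The search itself used symbols and this minimum and no fold change. The search returned 39 rows, all above that minimum, of 19412 rows above it and 32520 in the table. For 25 of the 39 symbols the gene name table held exactly 1 Ensembl gene. It held 2 for *SMARCA4*, *ARID1A* and *dpf2*, and 0 for *smarca4a*, *arid1aa*, *dpf2l* and others. Whether a gene listed under a symbol with 2 is also a row without an entry is not known. The rows were split by the assembly of the human or mouse protein, and in the core by that of its family. Whether each paralog of a core family is in every assembly was not considered. There were 3 ATPases, 12 core subunits of families found in all assemblies, and 3 core subunits of BAF and PBAF. Another 11 were subunits of BAF, 5 of PBAF and 3 of ncBAF, with *ss18* in BAF and ncBAF and *ss18l2* not assigned. Transcripts of the ATPases *SMARCA4* and *smarca2*, of the bromodomain subunits *brd9* and *brd7*, of the scaffold *smarcc2* and of all 4 *bcl11* genes were higher in *mtmr5*-KO. Of these, only *SMARCA4*, *smarca2*, *brd9* and *bcl11ab* were also called when libraries were scaled by their totals, where *bcl11aa* turned to a log2 fold change of -0.23. The others called higher in the main fit were *smarca4a*, *arid1b*, *dpf2*, *smarcc1a* and *smarcd2*, and *smarcd3b* was called lower. That made 14 of the 39 higher and 1 lower, where 13.5% and 7.51% of all tested genes were. The remaining 24 were not called in either direction. With libraries scaled by their totals 22 of the 39 were called lower, where 55.7% of all tested genes were. The 4 called higher there compare with 3.7% of all tested genes.

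A SWI/SNF complex is built around a single ATPase, SMARCA4 or its close relative SMARCA2, on a scaffold of SMARCC and SMARCD proteins. The canonical complex BAF adds ARID1 and DPF proteins, PBAF adds ARID2, PBRM1, PHF10 and BRD7, and the non-canonical complex ncBAF has BRD9 and BICRA or BICRAL and lacks SMARCB1 and SMARCE1. In mice, neural progenitors and neurons carry different versions, in which ACTL6A, SS18, PHF10 and DPF2 give way to ACTL6B, SS18L1, DPF1 and DPF3 as cells leave the cycle, and mutations in many of the human genes cause neurodevelopmental disorders.

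The study asked what loss of *mtmr5* (*sbf1*), a catalytically inactive myotubularin whose human homolog is mutated in an inherited neuropathy, does to gene expression in the larval head. All larvae were of the AB strain and 7 dpf old, and came from in-crosses of a line in which CRISPR/Cas9 cuts in the first and last exons had removed the gene. The 4 WT and 4 *mtmr5*-KO libraries were made from polyA RNA of pooled heads, with 11 to 17 heads dissected per genotype. The replicates came from different breeding pairs over time, and the study calls the WT larvae siblings of the *mtmr5*-KO larvae. Heads hold eyes, skin, muscle and cartilage beside the brain, so in these libraries fewer cells of a type and less RNA per cell cannot be told apart.

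Total counts were 20514932 to 22761120 for WT libraries against 16104181 to 19170140 for *mtmr5*-KO, and *sbf1* had 1894 to 2545 raw counts in WT and 26 to 63 in *mtmr5*-KO. The 13 mitochondrially encoded genes took 6.44% to 8.82% of the counts of WT libraries against 18.6% to 26.6% for *mtmr5*-KO. Scaling was by TMM, under the assumption that most genes do not change. Its factors ranged over 1.28 to 1.60 for WT and over 0.559 to 0.881 for *mtmr5*-KO, with the lowest values in *mtmr5*-KO replicates 3 (0.559) and 4 (0.646). A TMM-scaled count below is a raw count brought to a common effective library size. Scaling by library totals instead moved the median log2 fold change of all tested genes from -0.02 to -0.98, so each fold change here is measured against the bulk of the genes. The subunits together took 0.212% ± 0.0105 of all counts in the WT libraries, and the *mtmr5*-KO libraries gave 0.192% ± 0.0144 (SD, n = 4 each).

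With edgeR's quasi-likelihood test and adjustment over all tested genes, 14 of the 39 subunits (35.9%) had a higher level in *mtmr5*-KO, with an adjusted p below 0.05, against 13.5% of all tested genes. Only *smarcd3b* (2.56%) was called lower, against 7.51%, and 24 subunits were not called, with log2 fold changes between -0.68 and 0.53. At the thresholds of the study, which ask for an adjusted p below 0.01 and a log2 fold change beyond 1 in either direction, 7 subunits were higher and 0 lower, against 7.13% and 1.08% of all genes. These 7 were *SMARCA4*, *smarca2*, *brd9*, *bcl11ab*, *brd7*, *smarcc2* and *bcl11ba*. In 14 subunits the lowest *mtmr5*-KO library exceeded the highest WT library, against 13.9% of all genes, and these were the 14 called higher. In 4 subunits, *smarcd3b*, *BICRA*, *smarce1* and *ss18*, all of the *mtmr5*-KO libraries were below all of WT, against 11% of all genes. The median log2 fold change was 0.09 over the subunits and -0.02 over all tested genes. Under scaling by library totals 4 subunits were higher (*SMARCA4*, *smarca2*, *brd9* and *bcl11ab*) and 22 lower, where 3.7% and 55.7% of all genes were, and the subunits' median was -0.88. Leaving out *mtmr5*-KO replicates 3 and 4 together left 8 subunits higher and 2 lower, where 8.27% and 4.17% of all genes were. With the replicate number as a block, 15 were higher and 7 lower, where 14.8% and 11.7% of all genes were.

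**Figure D1:**
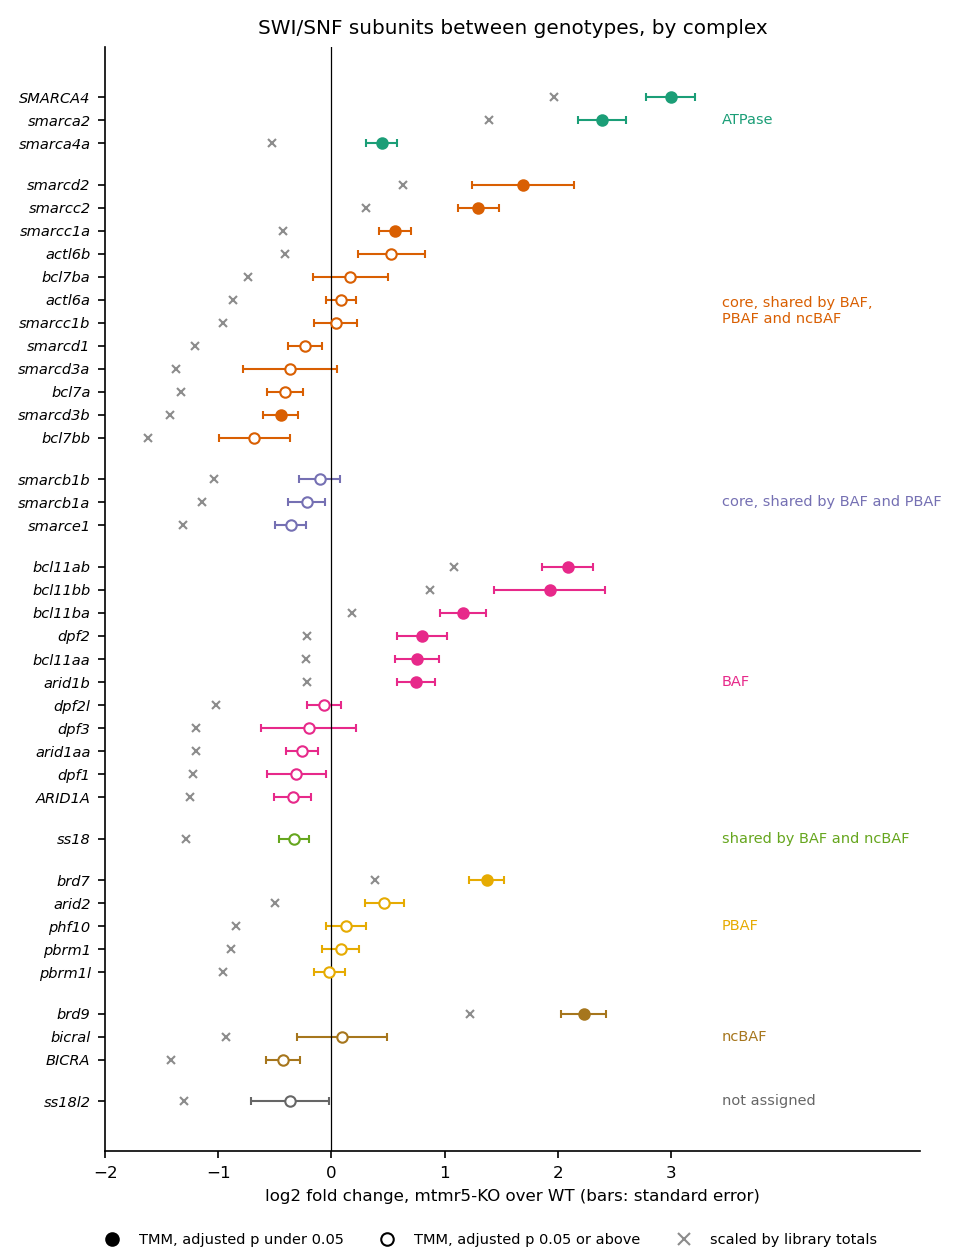
Log2 fold change of each of the 39 subunits between *mtmr5*-KO and WT (horizontal axis, with standard error bars), grouped by complex, with filled circles at an adjusted p under 0.05 and grey crosses for scaling by library totals. The ATPases *SMARCA4* and *smarca2* (2.996 and 2.39), *brd9* (2.23) and *bcl11ab* (2.09) lie farthest to the right and remain above 0 as crosses, while the cross of *smarca4a* lies at -0.53.

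By complex, all 3 ATPases were called higher, and their median log2 fold change was 2.39. Under library totals *SMARCA4* and *smarca2* were still called higher, while *smarca4a* was called lower (edgeR adjusted p = 0.0251). Among subunits particular to BAF 6 of 11 were higher (median 0.74), all of them *bcl11* genes except *arid1b* and *dpf2*, and the sign of *arid1b*, *dpf2* and *bcl11aa* turned under library totals. In PBAF 1 of 5 was higher, *brd7* (median 0.13), and in ncBAF 1 of 3, *brd9* (median 0.09). Of the core families common to every assembly 3 of 12 subunits were higher, *smarcc2*, *smarcc1a* and *smarcd2*, and 1 lower. The median of the 12 was 0.06, and the sign of *smarcc1a* turned under library totals. None of the 3 core subunits of BAF and PBAF was called, and their median was -0.22. Over all tested genes 13.5% were called higher and 7.51% lower. Whether the complexes differ from each other or from all genes was not tested.

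The row *SMARCA4* carries the human symbol of the ATPase also called BRG1, and since the gene name table holds 2 Ensembl genes under it, which of them was counted is not known. It had 425, 430.0, 534 and 474 TMM-scaled counts in WT replicates 1 to 4 and 3214, 2291, 5127 and 4235 in *mtmr5*-KO replicates 1 to 4. Every *mtmr5*-KO library was several times above the highest WT library, and replicate 2 was the lowest of them. The mean went from 466 ± 50.5 to 3717 ± 1230 (SD, n = 4 each), a fitted log2 difference of 2.996 with a standard error of 0.22 (edgeR adjusted p = 7.11e-07). Before any scaling its raw counts were already higher, at 611 to 707 for WT against 1601 to 2539 for *mtmr5*-KO, although the *mtmr5*-KO libraries were shallower.

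*smarca2* (ENSDARG00000008904), which encodes the alternative ATPase BRM, had 1039, 1321, 1387 and 1682 TMM-scaled counts in WT and 5875, 5380.0, 10034 and 7257 in *mtmr5*-KO. The groups lay far apart, with replicate 3 highest among the *mtmr5*-KO libraries. The log2 difference was 2.39 (standard error 0.21, edgeR adjusted p = 1.58e-06). *smarca4a*, another gene of the BRG1 type, had 3214, 3311, 3751 and 3159.7 TMM-scaled counts in WT and 4335, 4426, 4648 and 4850.2 in *mtmr5*-KO. The groups did not overlap, but the gap was small beside that of the other ATPases. Its log2 fold change was 0.44 (standard error 0.14, edgeR adjusted p = 0.0305). Under library totals it was -0.53 and the gene was called lower (edgeR adjusted p = 0.0251). The call of *smarca4a* was lost on leaving out replicate 1, 2 or 4 of WT, or replicate 3 or 4 of *mtmr5*-KO, with adjusted p from 0.0571 to 0.0855.

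The split of the counts among the 3 ATPase genes does not depend on how libraries are scaled. *smarca4a* held 64.9% ± 3.92 of their raw counts in WT and 30.5% ± 5.49 in *mtmr5*-KO, *smarca2* 26.1% ± 4.02 and 45.8% ± 3.23, and *SMARCA4* 8.97% ± 0.381 and 23.7% ± 3.28 (SD, n = 4 each). In every WT library *smarca4a* had the largest part of these counts, from 59.4% to 68.7%, and in every *mtmr5*-KO library *smarca2* had, from 43.8% to 50.7%. Counts were not divided by transcript length, so the shares compare libraries and not the amounts of the ATPases. On the TMM scale the sum of the ATPases was 5182 ± 418 in WT and 15420 ± 3423 in *mtmr5*-KO.

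**Figure D2:**
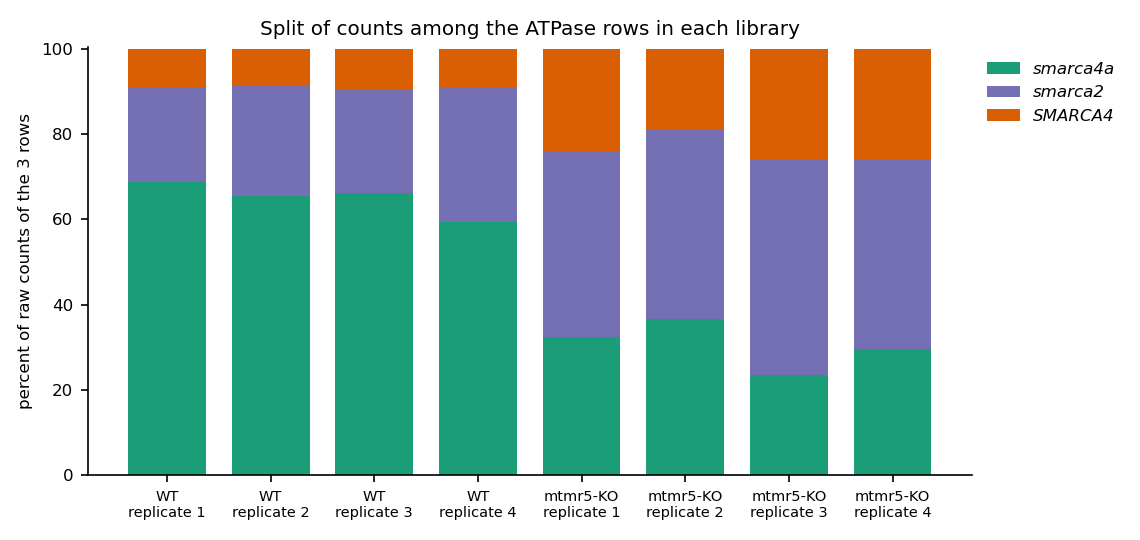
Stacked bars of the percentage of raw counts that *smarca4a*, *smarca2* and *SMARCA4* took among the 3 ATPase genes, 1 bar per library. The *smarca4a* part falls from 59.4% to 68.7% among WT libraries to 23.5% to 36.6% among *mtmr5*-KO libraries, with no overlap.

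Ratios between paired subunits were taken within each library, where scaling cancels, for paralogs and for subunits that replace each other. The log2 ratio of *SMARCA4* to *smarca4a* was 2.49 higher in *mtmr5*-KO and that of *smarca2* to *smarca4a* was 1.93 higher. Between *smarca2* and *SMARCA4* the ratio moved by -0.57. In each of these the genotypes did not overlap (exact permutation test, two-sided, p = 0.0286). No smaller p can be reached with 4 libraries on each side, and adjusted over the 13 pairs run it was 0.062. With 6 of the 13 pairs at this smallest p, no pair could pass 0.05 after adjustment, however large its difference.

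In BAF, ARID1 proteins are large DNA-binding subunits that define the complex. *arid1b* had 922, 1149, 1301 and 1538 TMM-scaled counts in WT and 1699.8, 2026, 2157 and 2338 in *mtmr5*-KO. The lowest *mtmr5*-KO library stood just above the highest WT library. The log2 fold change of *arid1b* was 0.74 (standard error 0.17, edgeR adjusted p = 0.00516), turning to -0.22 under library totals. For *arid1aa* the values were 1690.1, 1769, 1601 and 1816 TMM-scaled counts in WT and 1432, 1648, 1207 and 1445 in *mtmr5*-KO, and the groups overlapped at *mtmr5*-KO replicate 2. For *ARID1A*, a row whose human symbol also stands for 2 Ensembl genes, they were 1205, 1476, 1322 and 1458 TMM-scaled counts in WT and 1140.2, 1382, 913 and 863 in *mtmr5*-KO, again with overlap. Their log2 fold changes of -0.26 and -0.34 did not pass the test (edgeR adjusted p = 0.199 and 0.151). Without *mtmr5*-KO replicate 2, *ARID1A* was called lower (edgeR adjusted p = 0.0294).

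The BCL11 proteins are zinc finger transcription factors that co-purify with BAF in mammals, and BCL11A and BCL11B act in the development of cortical neurons there. *bcl11ab* (ENSDARG00000063153) had 83.8, 87.2, 120.0 and 80.6 TMM-scaled counts in WT and 282, 341, 489 and 474 in *mtmr5*-KO. All *mtmr5*-KO libraries lay well above replicate 3, the highest WT library. The change came to 2.09 in log2 units (standard error 0.23, edgeR adjusted p = 7.21e-06). *bcl11ba* (ENSDARG00000062510) had 2624, 3334, 4139 and 4551 TMM-scaled counts in WT and 6127, 7453, 9153 and 10041 in *mtmr5*-KO. The groups did not overlap, and replicate 1 was the lowest library of both. The log2 fold change of *bcl11ba* was 1.16 (standard error 0.20, edgeR adjusted p = 0.000615), and under library totals it was 0.19 and not called (adjusted p = 0.424).

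The other *bcl11* genes rose less firmly. *bcl11aa* had 595, 925, 846 and 1023 TMM-scaled counts in WT and 1037, 1268, 1765 and 1659.7 in *mtmr5*-KO. Replicate 1 of *mtmr5*-KO was barely above WT replicate 4. Its log2 fold change was 0.76 (edgeR adjusted p = 0.0118) and went to -0.23 under library totals. *bcl11bb*, with few reads, had 14.5, 16.8, 15.1 and 10.1 TMM-scaled counts in WT and 40.3, 37.2, 111 and 29.1 in *mtmr5*-KO. A single library, *mtmr5*-KO replicate 3, stood far above the others. Its log2 fold change of 1.93 (edgeR adjusted p = 0.011) became 1.30 without that library, with an adjusted p of 0.0682, and 0.87 under library totals, with one of 0.133. Within libraries the ratio of *bcl11ab* to *bcl11aa* was 1.32 higher in *mtmr5*-KO on the log2 scale with no overlap (exact permutation test, p = 0.0286, adjusted p = 0.062), and that of *bcl11bb* to *bcl11ba* was 0.59 higher with overlap (exact permutation test, p = 0.343, adjusted p = 0.405).

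DPF proteins carry PHD fingers that bind acylated histone tails. The symbol *dpf2*, of the broadly expressed form, stands for 2 Ensembl genes, and which of them was counted is not known. Its row had 176, 113, 139.6 and 152 TMM-scaled counts in WT and 200.0, 202, 307 and 308 in *mtmr5*-KO. The groups stood apart by a small margin, with *mtmr5*-KO replicates 3 and 4 highest. On the log2 scale the change was 0.80 (standard error 0.22, edgeR adjusted p = 0.0184) and -0.22 under library totals. The call of *dpf2* was lost on leaving out replicate 2 or 3 of WT, or replicate 3 or 4 of *mtmr5*-KO, with adjusted p from 0.0531 to 0.0705. *dpf2l* had 621, 607, 775 and 716 TMM-scaled counts in WT and 645, 672, 731 and 547 in *mtmr5*-KO. *dpf1* had 100.1, 107, 120.0 and 121 TMM-scaled counts in WT and 75.8, 127, 66.6 and 89.4 in *mtmr5*-KO. *dpf3* had 76.0, 51.0, 49.8 and 32.6 TMM-scaled counts in WT and 22.6, 65.8, 66.6 and 27.0 in *mtmr5*-KO. In these 3 genes the genotypes overlapped widely, and their log2 fold changes of -0.07, -0.31 and -0.20 were not called (edgeR adjusted p = 0.792, 0.443 and 0.777).

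**Figure D3:**
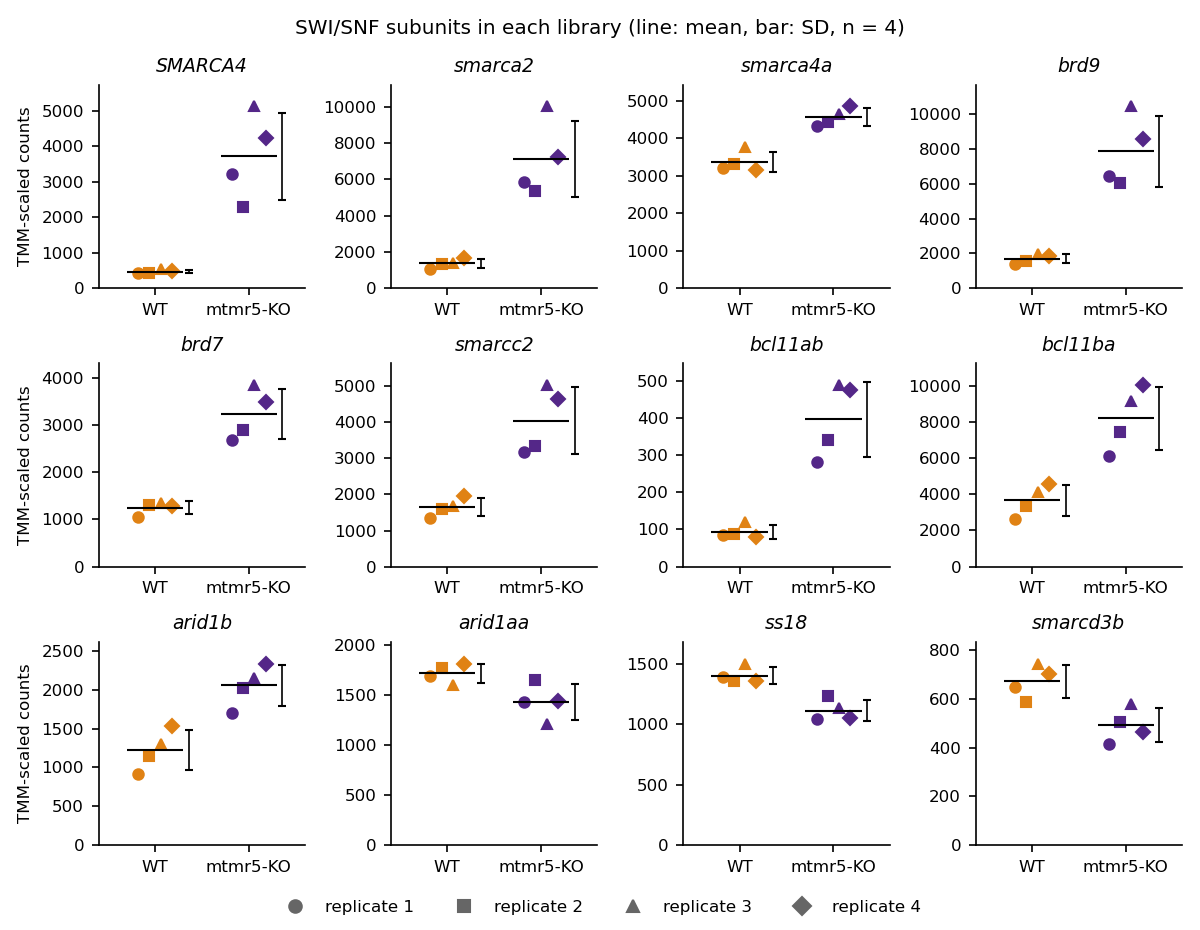
TMM-scaled counts (vertical axes, each starting at 0) of 12 subunits in the 4 WT (orange) and 4 *mtmr5*-KO (purple) libraries, with marker shape for replicate number, a line at the mean and a bar for the SD. *SMARCA4*, *smarca2* and *brd9* separate most widely, *arid1aa* overlaps, and *ss18* and *smarcd3b* lie lower in all 4 *mtmr5*-KO libraries on this scale.

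Of the PBAF subunits, *brd7* (ENSDARG00000008380), which encodes a bromodomain protein that reads acetylated lysines, had 1053, 1298, 1359 and 1287 TMM-scaled counts in WT and 2692, 2907, 3855 and 3502 in *mtmr5*-KO. Every *mtmr5*-KO library was above the WT range by a wide margin. The log2 fold change of *brd7* was 1.37 (standard error 0.15, edgeR adjusted p = 1.04e-05), and 0.39 under library totals, where it was not called. *arid2*, the ARID scaffold of PBAF, had 686, 689, 643 and 655 TMM-scaled counts in WT and 1045, 871, 1143 and 636 in *mtmr5*-KO. Replicates 1 to 3 of *mtmr5*-KO lay above WT, and replicate 4 lay below every WT library. The log2 fold change of *arid2* was 0.47 (edgeR adjusted p = 0.0619), and without replicate 4 it was 0.58 with an adjusted p of 0.0143. Under upper quartile scaling it was 0.52 (edgeR adjusted p = 0.0405), and under library totals -0.50 (edgeR adjusted p = 0.0728). *arid2* lies on the same chromosome as *sbf1*, 209 genes apart, and whether its position plays a part was not tested.

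The polybromo genes encode a protein with a row of bromodomains that only PBAF holds. *pbrm1* had 481, 548, 619.7 and 706 TMM-scaled counts in WT and 493, 639.6, 711 and 649 in *mtmr5*-KO. *pbrm1l* had 990.4, 962, 961 and 1100.3 TMM-scaled counts in WT and 1087, 1056, 860.2 and 953 in *mtmr5*-KO. Both sets of libraries overlapped, with log2 fold changes of 0.08, which was -0.88 under library totals, and -0.02, which was 0.03 under upper quartile scaling. *phf10*, for a PHD finger subunit, had 249, 249.9, 269 and 204 TMM-scaled counts in WT and 300.0, 228, 256 and 277 in *mtmr5*-KO. Its WT and *mtmr5*-KO values were interleaved, and its log2 fold change was 0.13, or -0.85 under library totals. The adjusted p of *pbrm1*, *pbrm1l* and *phf10* in edgeR were 0.769, 0.936 and 0.661.

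Among the ncBAF subunits, *brd9* (ENSDARG00000017143), whose bromodomain protein is found only in that complex, had 1366, 1577, 1936 and 1850.1 TMM-scaled counts in WT and 6443, 6067, 10469.6 and 8567 in *mtmr5*-KO. All *mtmr5*-KO libraries lay far above the highest WT library, and replicates 3 and 4 were the highest. The mean went from 1682 ± 261 to 7887 ± 2044 (SD, n = 4 each), a difference of 2.23 in log2 units with a standard error of 0.20 (edgeR adjusted p = 1.58e-06), and raw counts of *brd9* were 2260 to 2565 for WT against 3995 to 5185 for *mtmr5*-KO. *BICRA*, the scaffold that holds BRD9 in the complex, had 669.5, 579, 639 and 602 TMM-scaled counts in WT and 474, 412, 569 and 395 in *mtmr5*-KO. It lay lower in every *mtmr5*-KO library, by a narrow gap. Its log2 fold change of -0.43 did not pass the test (edgeR adjusted p = 0.0605) and did without *mtmr5*-KO replicate 3 (log2 fold change -0.57, adjusted p = 0.0179). DESeq2, the tool of the study, and limma-voom called *BICRA* lower (DESeq2 adjusted p = 0.0361, limma-voom adjusted p = 0.0492). *bicral*, its paralog, had 76.6, 60.0, 46.0 and 53.5 TMM-scaled counts in WT and 19.4, 73.0, 92.9 and 68.6 in *mtmr5*-KO, with overlap and no call (log2 fold change 0.09, edgeR adjusted p = 0.894).

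Between the bromodomain subunits that mark ncBAF and PBAF, the log2 ratio of *brd9* to *brd7* was 0.42 ± 0.12 in WT, and in *mtmr5*-KO it was 1.26 ± 0.16 (SD, n = 4 each). The difference of 0.84 had no overlap between genotypes (exact permutation test, p = 0.0286, adjusted p = 0.062). Both genes were higher in *mtmr5*-KO on the TMM scale, and *brd9* by the larger amount.

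SMARCC proteins form the base of every assembly. *smarcc2* (ENSDARG00000077946) had 1342, 1603, 1683 and 1945 TMM-scaled counts in WT and 3171, 3341, 5034 and 4629.7 in *mtmr5*-KO. The groups lay well apart, and *mtmr5*-KO replicates 3 and 4 were above replicates 1 and 2. The log2 fold change of *smarcc2* was 1.30 (standard error 0.18, edgeR adjusted p = 8.26e-05), and 0.30 with no call under library totals. *smarcc1a* had 1031, 948, 959 and 834 TMM-scaled counts in WT and 1353, 1289, 1652 and 1279 in *mtmr5*-KO. Its groups did not overlap either, with a log2 fold change of 0.56 (standard error 0.14, edgeR adjusted p = 0.0101) that went to -0.43 under library totals. The duplicate *smarcc1b* stayed at 232 to 442 TMM-scaled counts over all 8 libraries (log2 fold change 0.04, edgeR adjusted p = 0.918), and the log2 ratio of *smarcc1b* to *smarcc1a* was 0.55 lower in *mtmr5*-KO with no overlap, a difference of -0.55 (exact permutation test, p = 0.0286, adjusted p = 0.062).

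SMARCD proteins link the complex to transcription factors, and their genes went in both directions. *smarcd2*, whose protein acts in blood cell maturation in mammals, had 32.6, 23.7, 9.06 and 15.5 TMM-scaled counts in WT and 45.2, 44.4, 82.8 and 93.6 in *mtmr5*-KO. All of these are low counts, with *mtmr5*-KO replicates 3 and 4 highest. The log2 fold change was 1.69 (standard error 0.45, edgeR adjusted p = 0.0146), and without *mtmr5*-KO replicate 4 it was 1.45 with an adjusted p of 0.0584. Under library totals it was 0.63 and not called (edgeR adjusted p = 0.247). *smarcd3b*, a duplicate of the SMARCD form of heart, muscle and neurons, had 649, 588, 745 and 703 TMM-scaled counts in WT and 414, 507, 579.5 and 466 in *mtmr5*-KO. The highest *mtmr5*-KO library was just under the lowest WT library. Its log2 fold change of -0.45 (standard error 0.15, edgeR adjusted p = 0.0467) kept its call only without *mtmr5*-KO replicate 3, and lost it when any of the other 7 libraries was left out (adjusted p from 0.0567 to 0.147). *smarcd1* and *smarcd3a* were not called, with log2 fold changes of -0.23 and -0.37.

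The remaining core subunits were not called by edgeR with TMM scaling. *actl6a*, for an actin-related protein of the complex, had 753, 724, 712 and 731 TMM-scaled counts in WT and 718, 844, 727 and 813 in *mtmr5*-KO. *actl6b*, for its neuronal counterpart in mice, had 96.5, 61.4, 60.4 and 76.8 TMM-scaled counts in WT and 111, 123, 62.6 and 129 in *mtmr5*-KO. The first showed no separation of the genotypes, while the second was higher in 3 *mtmr5*-KO libraries than in any WT library, with replicate 3 within the WT range. Their log2 fold changes were 0.09 and 0.53 (edgeR adjusted p = 0.686 and 0.222), both below 0 under library totals (-0.87 and -0.41). *ss18*, a BAF and ncBAF subunit known from the fusion gene of synovial sarcoma, had 1394, 1360.4, 1504 and 1357 TMM-scaled counts in WT and 1043, 1235, 1133 and 1050.3 in *mtmr5*-KO. Its *mtmr5*-KO libraries all lay below WT, with a log2 fold change of -0.33 (edgeR adjusted p = 0.0853). *smarce1*, whose protein has an HMG box that binds DNA, lay lower in every *mtmr5*-KO library as well (log2 fold change -0.36, edgeR adjusted p = 0.0814, and 0.0245 without *mtmr5*-KO replicate 1). DESeq2, the tool of the study, called *ss18* and *smarce1* lower (DESeq2 adjusted p = 0.0285 and 0.031).

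*smarcb1a* and *smarcb1b*, duplicates of the tumour suppressor subunit that grips the nucleosome's acidic patch, overlapped between genotypes, with log2 fold changes of -0.22 and -0.10. The BCL7 genes *bcl7a*, *bcl7bb* and *bcl7ba* had log2 fold changes of -0.41, -0.68 and 0.17 (edgeR adjusted p = 0.0802, 0.136 and 0.762), and the first was called lower without *mtmr5*-KO replicate 2 (adjusted p = 0.0159) and the second without replicate 4 (adjusted p = 0.0407). *ss18l2*, a short relative of *ss18*, had a log2 fold change of -0.36.

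Among the subunits exchanged between progenitors and neurons in mice, only *dpf2* was called. Of the progenitor forms *actl6a*, *ss18*, *phf10* and *dpf2*, 1 of 4 was called higher, *dpf2*, and 0 lower. The shares over all tested genes were 13.5% and 7.51%. Of the neuronal forms *actl6b*, *dpf1* and *dpf3*, 0 of 3 were called, and *ss18l1* was not among the rows tested. Within libraries, the log2 ratio of *actl6b* to *actl6a* was 0.42 higher in *mtmr5*-KO (exact permutation test, p = 0.143, adjusted p = 0.186). The ratio of *dpf1* to *dpf2* differed by -1.15 (exact permutation test, p = 0.0571, adjusted p = 0.106) and that of *dpf3* to *dpf2* by -1.10 (exact permutation test, p = 0.0857, adjusted p = 0.139). The genotypes overlapped in all of these ratios, and none passed the test. The other paralog pairs, *smarcb1b* to *smarcb1a*, *smarcd3b* to *smarcd3a* and *bcl7bb* to *bcl7ba*, differed by 0.10, 0.12 and -0.78 with overlap (exact permutation test, p = 0.6, 0.857 and 0.114, adjusted p = 0.65, 0.857 and 0.165).

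**Figure D4:**
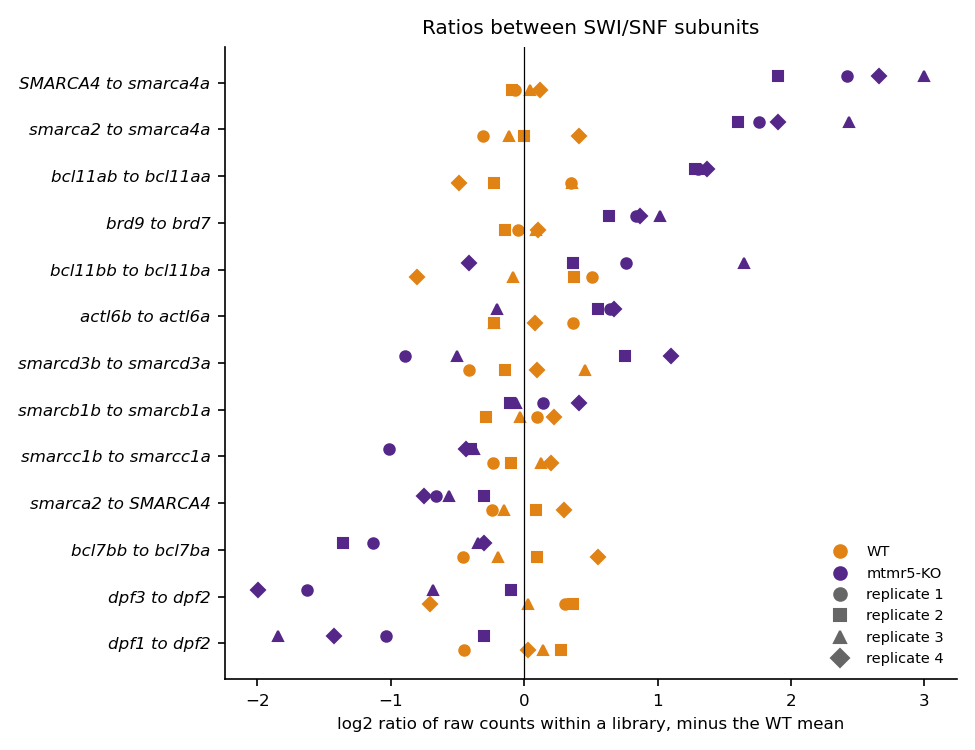
Log2 ratio of raw counts of paired subunits within each library, minus the WT mean of that pair (horizontal axis), for 13 pairs in the 4 WT and 4 *mtmr5*-KO libraries. The ratios of *SMARCA4* and *smarca2* to *smarca4a*, of *bcl11ab* to *bcl11aa* and of *brd9* to *brd7* lie to the right of all WT libraries, those of *smarca2* to *SMARCA4* and *smarcc1b* to *smarcc1a* lie to the left, and the other 7 pairs overlap.

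The *mtmr5*-KO libraries were not alike. In 12 of the 14 subunits called higher (85.7%), replicates 3 and 4 both lay above replicates 1 and 2, as they did in 57.0% of all genes called higher and in 22.0% of all tested genes. These are also the libraries with the lowest TMM factors and the highest mitochondrial shares, 26.3% and 26.6% against 20.6% and 18.6%, and the part of either in the fold changes was not tested. Without both, *SMARCA4*, *smarca2*, *brd9*, *bcl11ab*, *brd7*, *smarcc2* and *bcl11ba* were still called higher, as was *arid2*.

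Other genes of the pathway were read from lists of related factors. Of 29 ATPases of the same SNF2 superfamily that work outside SWI/SNF, 13 (44.8%) were higher in *mtmr5*-KO and 3 (10.3%) lower, against 13.5% and 7.51% of all tested genes, while under library totals 5 were higher and 12 lower, against 3.7% and 55.7%. Their median log2 fold change was 0.50, and that of all tested genes -0.02. The largest changes were those of *CHD3* (2.37) and *CHD5* (2.31), which encode ATPases of the NuRD complex, *chd2* (1.91), *atrx* (1.70), which in mammals loads histone variant H3.3 at heterochromatin, and *ino80* (1.58). *chd8*, *rad54l2* and *EP400* were lower, by -0.89, -0.69 and -0.50. ATPases outside SWI/SNF were thus called higher too, and whether their list differs from the subunits was not tested.

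Beta actin, itself a subunit of the complexes, was not called in either of its 2 genes, with log2 fold changes of -0.37 for *actb1* and -0.03 for *actb2*. Of 8 genes of the REST corepressor axis, through which neuronal genes and the microRNAs that repress ACTL6A in mice are held silent in progenitors, 2 were higher, *rest* (log2 fold change 0.62, edgeR adjusted p = 0.0163) and *rcor3* (1.82, edgeR adjusted p = 0.0261). The other 6, among them *hdac1* (-0.01) and *kdm1a* (-0.20), were not called. The share called higher over all tested genes was 13.5%, and under library totals 0 of the 8 were higher and 5 lower.

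Markers of several cell types of the head moved between the genotypes too. So did those of liver and exocrine pancreas, which lie outside the head. The summed TMM-scaled counts of 12 neuron markers ran from 81000 to 104100 in WT and from 142800 to 175400 in *mtmr5*-KO, with 5 called higher and 2 lower, and those of 16 progenitor and proliferation markers from 16480 to 18400 and from 13300 to 17260, with 5 lower. All 12 lens markers had log2 fold changes between -5.38 and -2.11, and 11 were called lower. Their sums fell from 50990 to 284900 in WT down to 1432 to 12290 in *mtmr5*-KO. Of 12 photoreceptor markers 0 were called, with sums of 100200 to 190500 and 51260 to 184700. Sums were higher in every *mtmr5*-KO library for 15 skeletal muscle markers (6817 to 8196 in WT, 10530 to 13840 in *mtmr5*-KO, 7 higher and 1 lower), 12 liver markers (782 to 1448 and 1904 to 7080, 9 higher), 9 exocrine pancreas markers (233 to 345 and 647 to 1381, 5 higher, with *cela1.1* at 0 counts) and 9 epidermis markers (7987 to 17020 and 19000 to 48230, 6 higher). Over all tested genes 13.5% were called higher and 7.51% lower. Under library totals 0 neuron markers were higher and 5 lower, and 15 progenitor markers and all 12 lens markers were lower. There 7 liver and 4 pancreas markers were still higher, but only 1 muscle marker was, with 4 lower. Of the epidermis markers 0 were higher and 1 lower, and of the photoreceptor markers 0 and 4. Over all tested genes the shares there were 3.7% higher and 55.7% lower. The part of these shifts in the subunits' fold changes was not tested.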

How the data were processed

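RNA of 8 libraries was sequenced by the authors as paired ends. Per the study's methods and the submitters' processing notes, reads were trimmed with Trim Galore 0.6.7, aligned to GRCz11 (Ensembl annotation) with STAR 2.7.11a and counted per gene with HTSeq 2.0.5, mode intersection_nonempty, uniquely mapping reads only. The strand setting of the counting was not given in the sources used here. Reads of overlapping antisense genes may not be told apart, and near-identical duplicates can lose reads. Whole-number raw counts were deposited for 32520 rows. The authors also deposited normalized counts, a signal in which each library's counts are divided by a size factor, used in 1 alternative only.

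Genotype and replicate were taken from the sample labels. Rows reaching 10 counts in 3 or more libraries, which is the study's filter, were tested on raw counts with edgeR 4.0.16 in R 4.3.3 (TMM, glmQLFit with robust=TRUE, glmQLFTest, genotype as the only term, Benjamini-Hochberg over 19412 rows). Standard errors were derived as the absolute log2 fold change divided by the root of its F value. Total counts of 16104181 to 22761120 per library limit genes of few reads. The p-values of edgeR set the difference between genotypes against the spread between these libraries. Ratios of 2 subunits were taken on raw counts within a library and compared by two-sided exact permutation tests. Subunits called at an adjusted p under 0.05, ATPases, subunits that define 1 complex and the exchanged subunits are given in every library, the others by range. The subunits, lists and tests were chosen with earlier results of these data known, and *ARID1A* and *BICRA* were placed in their complexes once the files' spelling was seen. Alternatives were DESeq2 1.42.0 (the study's tool), limma 3.58.1 (voom, and on log2 of normalized counts plus 1), other scalings, filters and thresholds, a replicate block, and libraries left out. The edgeR fit was tested on simulated counts with a small set of genes changed in random directions, which does not probe the choice of scaling. Matplotlib 3.10.9 under Python 3.11.15 drew the figures.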

Additional observations from a re-analysis of the deposited data

Results flagged for a closer look

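In 4 of 78 groups of 4 libraries, 2 for each subunit, 1 library stood apart from the others by Dixon's criterion, which chance gives in about 1 in 20 groups. *bcl11bb* had 111 TMM-scaled counts (111.1) in *mtmr5*-KO replicate 3, against 29.1 to 40.3 in the other *mtmr5*-KO libraries. *bcl11ab* had 120.0 in WT replicate 3, against 80.6 to 87.2 in the other WT libraries. *bcl7bb* had 182 (182.2) and *smarcb1b* 803 (803.3) in WT replicate 4, against 122 to 131 and 629 to 645 in the other WT libraries.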

How the results depend on the processing

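The count of subunits higher in *mtmr5*-KO was 14, and lay between 11 and 14 with 1 library left out, where 10.6% to 14.4% of all tested genes were. It was 8 without *mtmr5*-KO replicates 3 and 4 (8.27% of all tested genes), 7 at the study's thresholds (7.13%) and 4 under library totals (3.7%). The count lower was 1, and 0 to 2 with 1 library left out, where 3.91% to 9.43% of all tested genes were. It was 0 under upper quartile scaling (6.16% of all tested genes) and at the study's thresholds (1.08%). It was 2 in limma-voom (7.26%) and without *mtmr5*-KO replicates 3 and 4 (4.17%). In DESeq2 it was 4 (10.2%), *ss18*, *smarce1*, *smarcd3b* and *BICRA*, and under library totals 22 (55.7%). With the replicate number as a block, 15 were higher, with *arid2* added (edgeR adjusted p = 0.0256), and 7 lower, against 14.8% and 11.7% of all tested genes. Added to *smarcd3b* were *smarce1* (edgeR adjusted p = 0.011), *BICRA* (0.0223), *ss18* (0.0317), *bcl7a* (0.0333), *ARID1A* (0.0425) and *bcl7bb* (0.0477). Libraries of the same number correlated at 0.103, 0.168, 0.0906 and 0.145 in their deviations from the group means, each best with its own number. The sources do not say that a number marks a shared breeding pair, so the block was kept as an alternative. *SMARCA4* (log2 fold changes of 1.97 to 3.15), *smarca2* (1.39 to 2.52), *brd9* (1.22 to 2.32) and *bcl11ab* (1.08 to 2.24) were called higher in all 19 alternatives, and *brd7*, *smarcc2* and *bcl11ba* lost the call only under library totals.

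Under library totals the sign turned for *actl6a* (-0.87), *actl6b* (-0.41), *arid1b* (-0.22), *arid2* (-0.50), *bcl11aa* (-0.23), *bcl7ba* (-0.74), *bicral* (-0.93), *dpf2* (-0.22), *pbrm1* (-0.88), *phf10* (-0.85), *smarca4a* (-0.53, edgeR adjusted p = 0.0251), *smarcc1a* (-0.43) and *smarcc1b* (-0.96). It also turned for *bcl7ba* (-0.0046), *bicral* (-0.081) and *smarcc1b* (-0.0016) in limma on normalized counts, for *bicral* (-0.13) and *smarcc1b* (-0.0060) in limma-voom, for *smarcc1b* (-0.013) with no filter, for *pbrm1l* (0.028) under upper quartile scaling, and without *mtmr5*-KO replicates 3 and 4 for *bicral* (-0.38), *pbrm1* (-0.084), *pbrm1l* (0.061) and *smarcc1b* (-0.22). With 1 library left out, values crossed 0 in *bicral* (-0.17 to 0.39), *dpf3* (-0.47 to 0.039), *pbrm1l* (-0.080 to 0.029), *pbrm1* (-0.0072 to 0.18), *dpf2l* (-0.15 to 0.0033), *bcl7ba* (-0.046 to 0.42), *smarcb1b* (-0.24 to 0.015) and *smarcc1b* (-0.15 to 0.17). The cause of these changes was not tested. Of the values of single subunits under an alternative, 635 kept direction and side of the threshold and 37 turned sign. With the sign kept, 36 newly passed the threshold and 32 no longer did. The 37 were counted as sign turns only, whether or not they also crossed the threshold. All 143 alternative values of the ratios counted as unchanged. With libraries left out this meant a move below the larger of the WT and *mtmr5*-KO SDs, a measure that can exceed the other group's spread. With 1 count added to both subunits it meant the same sign and side of p 0.05. The replicate block leaves the mean difference of a ratio as it was, so those values could not move. Its p did move, for *smarca2* to *smarca4a* and *bcl11ab* to *bcl11aa* from 0.0286 (exact permutation test) to 0.125 (exact sign-flip test). That is the smallest p the sign-flip test can reach here, so it cannot pass 0.05. The sign of a ratio turned in pairs whose genotypes overlapped, *smarcb1b* to *smarcb1a* (-0.0065 without *mtmr5*-KO replicate 4) and *smarcd3b* to *smarcd3a* (-0.020 without WT replicate 1, -0.098 without *mtmr5*-KO replicate 2, -0.21 without replicate 4 and -0.066 without replicates 3 and 4), and in no other. *smarcd3a* had no value where at least 10 counts in all 8 libraries were asked for, and the pairs of *ss18l1* with *ss18* and *arid2* with *arid1ab* were not run, as *ss18l1* and *arid1ab* were not among the rows tested. Genes of few reads, such as *bcl11bb* and *smarcd2*, are the least certain.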
